A study of Mus musculus with 17 samples.

Results

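The genes described here are 9 components of the IL-6 cytokine family and its signal route to STAT3, measured by RNA-Seq in mouse dorsal root ganglia (DRGs): the ligands *Il6*, *Lif* and *Clcf1*, the receptor chains *Il6ra*, *Cntfr*, *Lifr* and *Il6st*, the transcription factor *Stat3*, and the feedback inhibitor *Socs3*. They were picked by name, as the entries of the expression tables whose gene symbol equals 1 of the 9 names, and are 9 of the 19152 genes in the tables. The mice are labelled C57BL/6 (the methods give a C57BL/6J background) and carried floxed *Mtor* alleles in every group. Control mice (*Mtorfl/fl*) had no Cre, and knockout mice (Adv-Cre::Mtorfl/fl, called *Mtor-cKO* here) carried a Cre recombinase driven by the advillin gene, which recombines in peripheral sensory neurons, so the other cells of the ganglion keep an intact *Mtor*. DRGs were taken from untreated mice (baseline) or 7 days after spared nerve injury (SNI), a model of neuropathic pain in which branches of the sciatic nerve are cut. SNI was bilateral, and each library holds the 4 lumbar DRGs (L4 and L5 of both sides) of a mouse. The *Mtorfl/fl* genotype had 4 baseline and 5 day 7 libraries, and the *Mtor-cKO* genotype had 4 of each. The methods name adults of both sexes for the biochemical and behavioral work, and do not state age or sex for RNA-Seq itself.

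Nearly all cytokines of the IL-6 family signal through receptor complexes that contain gp130, the product of *Il6st*. IL-6 binds its own receptor chain IL-6R (*Il6ra*) and pairs of gp130, LIF binds the LIF receptor (*Lifr*) with gp130, and the CNTF receptor chain (*Cntfr*) joins the LIF receptor and gp130 to bind CNTF and CLCF1. The receptors activate JAK kinases, which phosphorylate STAT3, and STAT3 in turn induces *Socs3*, whose product inhibits the JAKs bound to gp130. In sensory ganglia this route is known for the injury response of axotomized neurons and for axon growth. RNA levels do not measure phosphorylation, so the activity of STAT3 was not measured here.

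After nerve injury, *Socs3* RNA rose in both genotypes, by 1.64-fold in *Mtorfl/fl* and by 1.52-fold in *Mtor-cKO* DRGs, whereas the change of *Stat3* RNA passed the test in neither genotype. *Clcf1* rose 2.28-fold in *Mtor-cKO* DRGs, and its 2-fold difference in *Mtorfl/fl* DRGs did not pass the test (adjusted p = 0.0819). *Cntfr* fell to 0.83 of its baseline level in *Mtorfl/fl* DRGs. Between the genotypes, *Cntfr* was higher in *Mtor-cKO* DRGs at both time points and *Il6st* at day 7. The response to injury was not found to differ between the genotypes for any of the 7 members tested.

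All these statements rest on 1 fit across 13408 genes, those whose mean reached 1 FPKM (fragments scaled to transcript length and sequencing depth) in any group. In it a gene passed at a Benjamini-Hochberg adjusted p under 0.05 in edgeR's quasi-likelihood test, and all p-values were adjusted over all 13408 genes. The filter kept 7 of the 9 members. *Il6* and *Lif* were under 1 FPKM in every group and were tested apart. Fold changes are given on the log2 scale with an approximate standard error (SE) and 95% confidence interval, and all 5 comparisons (injury in each genotype, genotype at each time point, and their interaction) share libraries. Because whole ganglia were sequenced, fewer cells of a type and less RNA per cell cannot be told apart.

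Library totals ran from 17060876 to 21076542 expected counts. *Mtor* itself was lower in *Mtor-cKO* DRGs at both time points (log2 fold change of -1.10 at baseline, adjusted p = 0.0154, and -0.91 at day 7, adjusted p = 0.0227), with no overlap between the groups of a time point. The pan-neuronal markers were abundant in all 17 libraries, with a summed level of 7200 to 9110 FPKM in *Mtorfl/fl* and of 5920 to 6540 FPKM in *Mtor-cKO* DRGs. The genotypes thus did not overlap in this sum. Of these 10 markers, 3 passed as lower and 1 as higher in *Mtor-cKO* DRGs at baseline, and 6 passed as lower at day 7. Among all genes, 15.9% and 26% passed in either direction. The part of this shift in the genotype differences of other genes was not tested. There were 3 libraries that stood apart from the rest, *Mtorfl/fl* baseline replicates 3 and 4 and *Mtorfl/fl* day 7 replicate 5. Their FPKM values summed to 439500 to 452754, against 381869 to 421543 in the others, and their long genes were low relative to their short genes (a log2 gap between the upper and the lower length quartile of genes of -0.39 to -0.34, against -0.10 to 0.25). They also held the highest summed levels of satellite glia markers (3460 to 3680 FPKM, against 1810 to 2690 FPKM in the others). *Mtor-cKO* baseline replicate 2 and day 7 replicate 1 held the most skeletal muscle marker RNA (439 and 386 FPKM, against 2 to 64.8 FPKM in the others). All 7 skeletal muscle markers passed as higher in *Mtor-cKO* DRGs at day 7. The results that these libraries change are given with and without them. The run without the 3 libraries richest in muscle markers also drops *Mtor-cKO* baseline replicate 4 (64.8 FPKM) and keeps 2 *Mtor-cKO* baseline libraries. Over all genes it passed 125 for injury in *Mtor-cKO* DRGs, against 933 in the fit reported. For genotype it passed 801 at baseline, against 2130, and 2192 at day 7, against 3483. Whether a call lost in that run reflects muscle RNA or fewer libraries was not tested.

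**Figure D1:**
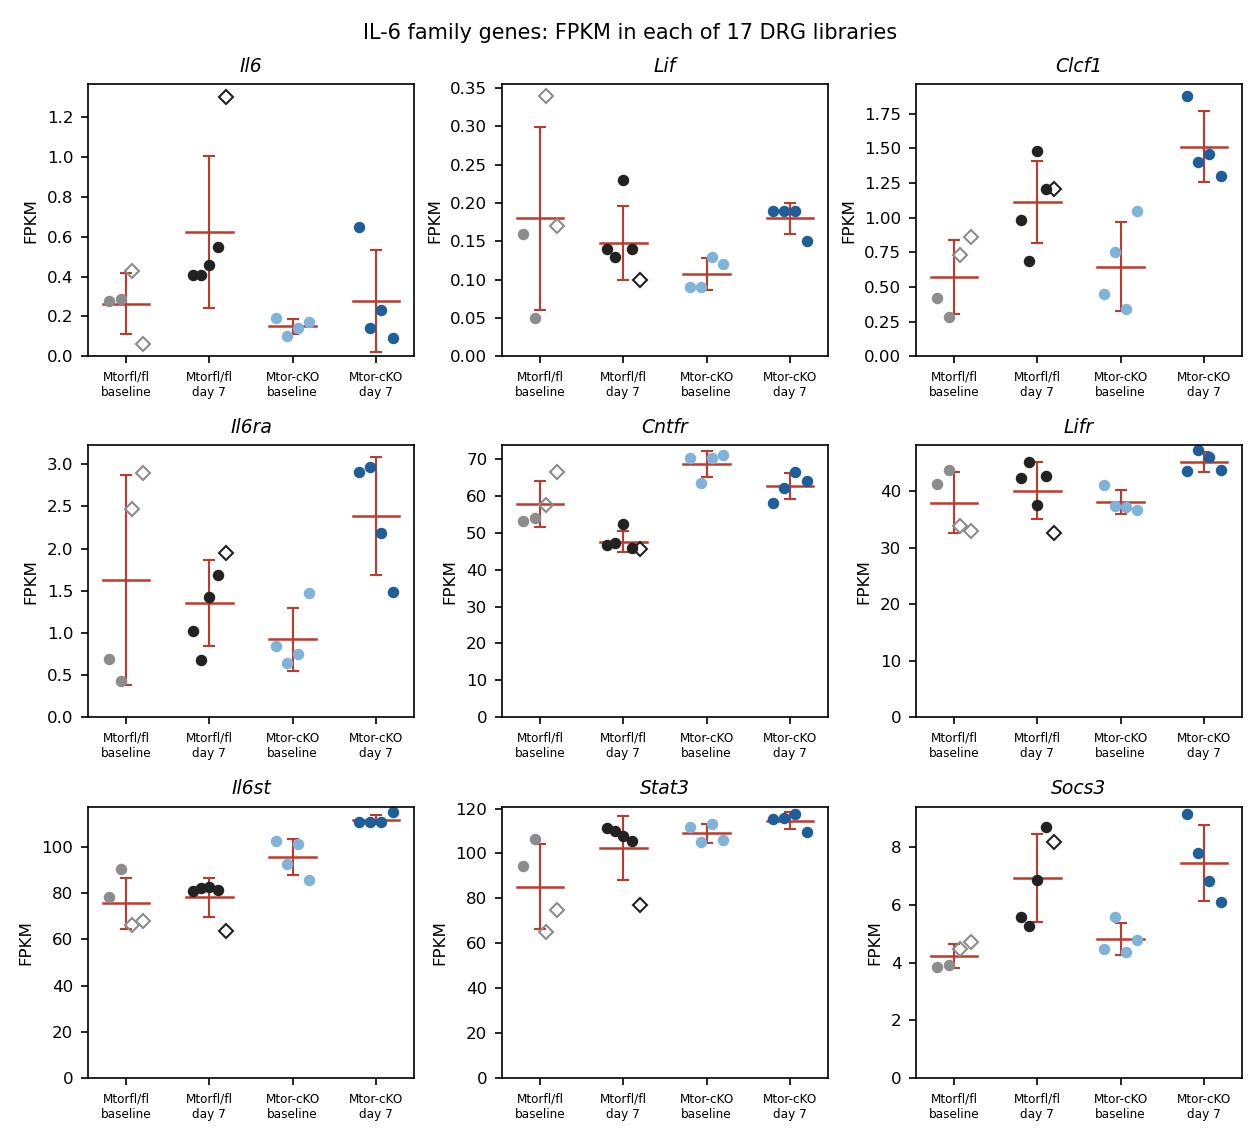
FPKM of the 9 genes in each of the 17 libraries, with a point per library, a red line at the group mean and a red bar of 1 SD. Open diamonds mark the 3 libraries with the highest total FPKM. *Stat3*, *Il6st*, *Cntfr* and *Lifr* lie above 32 FPKM in every library, and *Socs3* lies higher at day 7 than at baseline in each genotype with no overlap.

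The 9 genes fell into 2 ranges of level, compared here in FPKM, which corrects for transcript length. Over the means of the 4 groups, *Stat3* stood at 103 FPKM, *Il6st* at 90.2 FPKM, *Cntfr* at 59.2 FPKM and *Lifr* at 40.3 FPKM. The other range began with *Socs3* at 5.86 FPKM, followed by *Il6ra* at 1.57 FPKM, *Clcf1* at 0.961 FPKM, *Il6* at 0.33 FPKM and *Lif* at 0.154 FPKM. Neighbours in this order overlapped where their libraries did: *Stat3* spanned 65.07 to 117.73 FPKM and *Il6st* 63.4 to 114.77 FPKM. *Lifr* reached 47.33 FPKM where *Cntfr* began at 45.7 FPKM, while *Socs3* (3.84 to 9.13 FPKM) lay far below *Lifr* and, by a small gap, above *Il6ra* (0.43 to 2.97 FPKM). The receptor chains that serve CNTF and LIF were thus far more abundant than the IL-6 binding chain and than the 3 ligands.

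*Il6*, the founding cytokine of the family (gene ID 16193, chr5:30013114-30019981 on the plus strand of GRCm38), was near the limit of detection. Baseline levels in *Mtorfl/fl* replicates 1 to 4 were 0.28, 0.29, 0.43 and 0.06 FPKM, and day 7 levels in replicates 1 to 5 were 0.41, 0.41, 0.46, 0.55 and 1.3 FPKM. *Mtor-cKO* DRGs gave 0.19, 0.1, 0.14 and 0.17 FPKM at baseline and 0.65, 0.14, 0.23 and 0.09 FPKM at day 7. The day 7 *Mtorfl/fl* values lay mostly above the baseline values, with baseline replicate 3 inside their range, and the highest value of all was day 7 replicate 5, one of the libraries that stood apart. These levels come from 22 and 67 expected counts over the whole *Mtorfl/fl* groups, and from 13 and 25 over the *Mtor-cKO* groups. On the log2(FPKM + 0.1) scale, the mean difference after injury was 1.00 in *Mtorfl/fl* DRGs (2-sided exact permutation test, p = 0.0317, where the smallest possible p is 0.00794) and 0.40 in *Mtor-cKO* DRGs (exact permutation p = 0.543). The first lost its side of 0.05 when single libraries were left out (exact permutation p up to 0.143), and when all genes were fitted with no filter *Il6* did not pass in edgeR (log2 fold change of 1.19, adjusted p = 0.271).

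*Lif*, the leukemia inhibitory factor gene (gene ID 16878, chr11:4257557-4272514, plus strand), was lower still. It was listed at 0.16, 0.05, 0.34 and 0.17 FPKM in *Mtorfl/fl* baseline replicates 1 to 4 and at 0.14, 0.13, 0.23, 0.14 and 0.1 FPKM in day 7 replicates 1 to 5. In *Mtor-cKO* DRGs it was listed at 0.09, 0.09, 0.13 and 0.12 FPKM at baseline and at 0.19, 0.19, 0.19 and 0.15 FPKM at day 7. The day 7 *Mtor-cKO* libraries all lay above the baseline ones, while those of *Mtorfl/fl* overlapped. On the log2(FPKM + 0.1) scale the difference was 0.43 in *Mtor-cKO* DRGs, with the smallest p that 4 libraries against 4 allow (2-sided exact permutation p = 0.0286), and with no filter it did not pass in edgeR (adjusted p = 0.285). The counts behind it were 34 over the baseline and 63 over the day 7 group.

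*Clcf1* encodes cardiotrophin-like cytokine factor 1, a ligand of the CNTF receptor complex (gene ID 56708, chr19:4214238-4223490, plus strand). It stood at 0.42, 0.28, 0.73 and 0.86 FPKM in *Mtorfl/fl* baseline replicates 1 to 4 and at 0.98, 0.69, 1.48, 1.21 and 1.21 FPKM in day 7 replicates 1 to 5. In *Mtor-cKO* DRGs it went from 0.45, 0.75, 0.34 and 1.05 FPKM at baseline to 1.88, 1.4, 1.46 and 1.3 FPKM at day 7. Day 7 *Mtor-cKO* libraries all exceeded the baseline ones, and in *Mtorfl/fl* DRGs only day 7 replicate 2 lay within the baseline range. The log2 fold change after injury was 1.19 in *Mtor-cKO* (SE 0.33, adjusted p = 0.0418) and 1.00 in *Mtorfl/fl* DRGs (SE 0.33, adjusted p = 0.0819), and the difference of these responses was 0.19 (95% interval of -0.80 to 1.18, adjusted p = 0.903). The *Mtor-cKO* call was marginal: it was lost on leaving out any of 7 *Mtor-cKO* libraries or *Mtorfl/fl* day 7 replicate 4 (adjusted p up to 0.127). Without the 3 libraries of highest total FPKM the *Mtorfl/fl* change passed, at a log2 fold change of 1.59 (adjusted p = 0.0252). In the annotation, 8.17% of the exon bases of *Clcf1* lie also in exons of another gene model on the same strand.

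*Il6ra*, which encodes the IL-6 binding chain (gene ID 16194, chr3:89864059-89913196, minus strand), was the most variable of the receptor genes. *Mtorfl/fl* baseline replicates 1 to 4 gave 0.69, 0.43, 2.47 and 2.9 FPKM, of which the 2 high values belong to the libraries that stood apart, and day 7 replicates 1 to 5 gave 1.02, 0.68, 1.43, 1.69 and 1.95 FPKM. *Mtor-cKO* values were 0.84, 0.64, 0.75 and 1.47 FPKM at baseline and 2.91, 2.97, 2.18 and 1.49 FPKM at day 7, which do not overlap. The log2 fold change after injury was 1.34 in *Mtor-cKO* (SE 0.46, adjusted p = 0.0872) and -0.21 in *Mtorfl/fl* DRGs (SE 0.43, adjusted p = 0.862), and neither passed. Of the 7 members it had the widest interval for the interaction (1.55, 95% interval of 0.21 to 2.88, unadjusted p = 0.0258, adjusted p = 0.314). This contrast rests on the libraries that stood apart: without them the *Mtorfl/fl* change was 1.07 (adjusted p = 0.0922), the *Mtor-cKO* change 1.34 (adjusted p = 0.00874) and the interaction 0.28 (adjusted p = 0.815).

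*Il6ra* is also expressed by macrophages, and the summed level of 15 macrophage markers moved with it in some libraries and not in others. That sum was 50.4 to 258 FPKM in *Mtorfl/fl* baseline, 121 to 345 FPKM in *Mtorfl/fl* day 7, 76.7 to 184 FPKM in *Mtor-cKO* baseline and 217 to 347 FPKM in *Mtor-cKO* day 7 libraries. All 15 markers were above 0 in every library, and 1 of the 15, *Mrc1*, named after its values were seen, passed as higher after injury in *Mtor-cKO* DRGs (log2 fold change of 1.31, adjusted p = 0.0493). In *Mtorfl/fl* baseline replicates 3 and 4 the sum was 165 and 258 FPKM, against 52.6 and 50.4 FPKM in replicates 1 and 2. In *Mtorfl/fl* day 7 replicates 3 and 5 it was 304 and 345 FPKM. Their *Il6ra* levels, 1.43 and 1.95 FPKM, were under the 2.47 FPKM of baseline replicate 3. After injury the median log2 fold change of the 15 markers was 0.80 in *Mtorfl/fl* DRGs, where that of *Il6ra* was -0.21. In *Mtor-cKO* DRGs these were 1.29 and 1.34. The part of macrophages in the *Il6ra* and *Clcf1* levels was not tested.

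**Figure D2:**
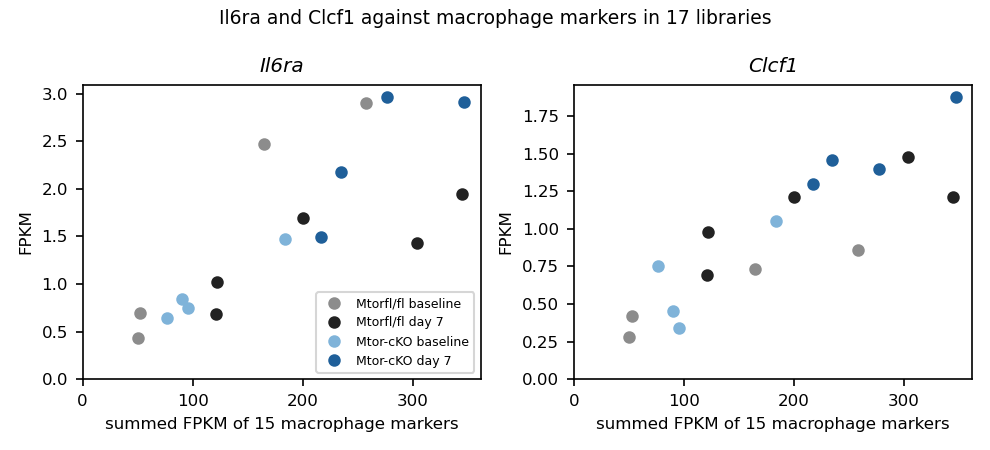
FPKM of *Il6ra* (left) and *Clcf1* (right) on the y axis against the summed FPKM of 15 macrophage markers on the x axis, with 1 point for each of 17 libraries, coloured by group. Libraries with a marker sum under 125 FPKM lie at or under 1.02 FPKM in both panels, and the highest *Il6ra* level, 2.97 FPKM, is in a *Mtor-cKO* day 7 library.

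*Cntfr* encodes the ligand-binding chain for CNTF and CLCF1 (gene ID 12804, chr4:41657498-41697089, minus strand), and was the member with the tightest fold changes. It stood at 53.1, 53.97, 57.45 and 66.53 FPKM in *Mtorfl/fl* baseline replicates 1 to 4 and at 46.7, 47.15, 52.43, 45.82 and 45.7 FPKM in day 7 replicates 1 to 5. *Mtor-cKO* values were 70.23, 63.42, 70.2 and 71.01 FPKM at baseline and 58.01, 62.19, 66.37 and 63.99 FPKM at day 7. Every *Mtorfl/fl* library was lower at day 7 than any at baseline, and every *Mtor-cKO* day 7 library exceeded every *Mtorfl/fl* one of that time, while at baseline *Mtorfl/fl* replicate 4 lay within the *Mtor-cKO* range. *Cntfr* fell by 0.27 on the log2 scale after injury in *Mtorfl/fl* DRGs (SE 0.06, adjusted p = 0.0143), and in *Mtor-cKO* DRGs the log2 fold change was -0.14 (SE 0.07, 95% interval of -0.28 to 0.00, adjusted p = 0.204). The difference of the responses was 0.13 (95% interval of -0.06 to 0.32, adjusted p = 0.568). *Mtor-cKO* DRGs had higher *Cntfr* at baseline (log2 fold change of 0.25, SE 0.07, adjusted p = 0.0169) and at day 7 (0.38, SE 0.06, adjusted p = 0.000468). The baseline difference missed the threshold without *Mtor-cKO* baseline replicate 1 or 3 (adjusted p up to 0.0562) and without the 3 libraries richest in muscle markers (0.29, adjusted p = 0.0588), and the fall after injury missed it when only the 2 groups compared were fitted (adjusted p = 0.125). The day 7 difference passed in every alternative run.

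*Lifr*, the gene of the LIF receptor (gene ID 16880, chr15:7090614-7197489, plus strand), showed no difference that passed. Its levels were 41.25, 43.82, 33.79 and 32.99 FPKM in *Mtorfl/fl* baseline replicates 1 to 4 and 42.37, 45.23, 37.47, 42.68 and 32.66 FPKM in day 7 replicates 1 to 5. *Mtor-cKO* levels were 41.12, 37.31, 37.27 and 36.6 FPKM at baseline and 43.51, 47.33, 45.96 and 43.74 FPKM at day 7. The *Mtor-cKO* time points did not overlap, yet the log2 fold change of 0.19 had a 95% interval of -0.13 to 0.51 (adjusted p = 0.445). In *Mtorfl/fl* DRGs it was 0.12 (95% interval of -0.19 to 0.42, adjusted p = 0.738), and the lowest 3 of the 17 values were those of the libraries that stood apart. The genotypes differed by 0.05 at baseline (95% interval of -0.27 to 0.37, adjusted p = 0.864) and by 0.13 at day 7 (95% interval of -0.18 to 0.43, adjusted p = 0.548).

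*Il6st* encodes gp130, the signal-transducing chain that nearly all receptor complexes of this family share (gene ID 16195, chr13:112464070-112510086, plus strand). *Mtorfl/fl* libraries held 78.23, 90.17, 66.09 and 67.8 FPKM in baseline replicates 1 to 4 and 80.95, 82.03, 82.63, 81.39 and 63.4 FPKM in day 7 replicates 1 to 5. *Mtor-cKO* libraries held 102.64, 92.69, 101.33 and 85.79 FPKM at baseline and 110.44, 110.8, 110.74 and 114.77 FPKM at day 7. The 4 *Mtor-cKO* day 7 libraries were the highest of all 17, and at baseline only *Mtorfl/fl* replicate 2 reached the *Mtor-cKO* range. *Il6st* was higher in *Mtor-cKO* DRGs at day 7 by 0.48 on the log2 scale (1.39-fold, SE 0.13, adjusted p = 0.0141). At baseline the difference was 0.33 (SE 0.14, 95% interval of 0.04 to 0.62, adjusted p = 0.123), and it passed without *Mtorfl/fl* baseline replicate 2 (0.47, adjusted p = 0.0226). The day 7 difference passed in every alternative run, at 0.39 (adjusted p = 0.000365) without the libraries that stood apart and at 0.49 (adjusted p = 0.042) without the 3 libraries richest in muscle markers. Injury changed *Il6st* by 0.05 in *Mtorfl/fl* (95% interval of -0.23 to 0.33, adjusted p = 0.899) and by 0.20 in *Mtor-cKO* DRGs (95% interval of -0.10 to 0.49, adjusted p = 0.393), neither of which passed, although the *Mtor-cKO* groups did not overlap. Without the libraries that stood apart, the latter passed at the same size (0.20, adjusted p = 0.032).

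*Stat3* encodes the transcription factor itself (gene ID 20848, chr11:100885098-100939540, minus strand) and was the most abundant member by its mean over the groups. Baseline levels in *Mtorfl/fl* replicates 1 to 4 were 94.45, 106.64, 65.07 and 74.97 FPKM, and those in day 7 replicates 1 to 5 were 111.43, 110.16, 107.74, 105.71 and 77.19 FPKM. In *Mtor-cKO* DRGs they were 111.57, 105.17, 113.32 and 105.82 FPKM at baseline and 115.41, 116, 117.73 and 109.47 FPKM at day 7. The 3 low values, 65.07, 74.97 and 77.19 FPKM, are those of the libraries that stood apart, and the other 14 libraries lay between 94.45 and 117.73 FPKM. Injury changed *Stat3* by 0.26 on the log2 scale in *Mtorfl/fl* (95% interval of -0.08 to 0.61, adjusted p = 0.409) and by 0.05 in *Mtor-cKO* DRGs (95% interval of -0.31 to 0.40, adjusted p = 0.895). The genotypes differed by 0.34 at baseline (95% interval of -0.02 to 0.70, adjusted p = 0.203) and by 0.12 at day 7 (95% interval of -0.22 to 0.46, adjusted p = 0.619). Without the 3 libraries these 4 differences were 0.07, 0.05, 0.04 and 0.01, and none passed. Without *Mtorfl/fl* baseline replicate 2, a high library, the baseline difference passed at 0.50 (adjusted p = 0.0409). Exons of *Stat3* share 72 bases (0.756% of its exon bases) with those of *Stat5a* on the opposite strand, and the strand setting of the counts is not stated.

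The low levels of *Stat3*, *Il6st* and *Lifr* in these 3 libraries moved with the loss of long genes there. Transcript lengths implied by the deposited values put *Lifr* at the percentile 97.7 of all genes tested, *Il6st* at 86.2 and *Stat3* at 77.7, while *Cntfr* is short, at 29.5, and stood at 57.45, 66.53 and 45.7 FPKM in them. The part of transcript length in the levels was not tested.

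**Figure D3:**
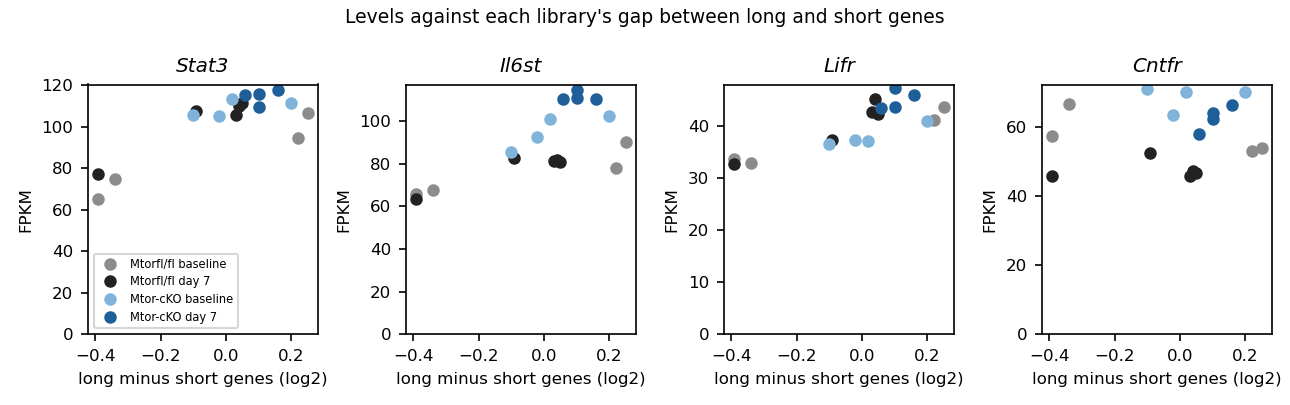
FPKM of *Stat3*, *Il6st*, *Lifr* and *Cntfr* on the y axes against each library's log2 gap between the upper and the lower length quartile of genes on the x axes, 1 point per library, coloured by group. The 3 libraries with a gap of -0.39 to -0.34 hold the lowest *Stat3* and *Lifr* levels of all 17, while their *Cntfr* levels are spread from 45.7 to 66.53 FPKM.

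*Socs3*, the inhibitor that STAT3 induces (gene ID 12702, chr11:117966079-117970047, minus strand), was the only member that passed after injury in both genotypes. Because its promoter is known to hold STAT binding elements, the 250 bases before its start (RefSeq, GRCm38.p6, chr11:117969367-117969616, minus strand) are shown 5′ to 3′, with the match to the STAT consensus TTCNNNGAA in capitals, which begins 154 bases before the start. RefSeq places that start inside the longer span given above, which is from GENCODE, so these bases lie before the RefSeq start and within the GENCODE gene.
Socs3: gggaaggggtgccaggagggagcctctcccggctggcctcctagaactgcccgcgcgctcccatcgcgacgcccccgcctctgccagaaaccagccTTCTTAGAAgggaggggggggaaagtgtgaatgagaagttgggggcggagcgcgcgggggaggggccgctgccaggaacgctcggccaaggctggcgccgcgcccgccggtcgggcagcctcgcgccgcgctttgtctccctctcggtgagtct
This consensus is its own reverse complement, so both strands were searched, and 7.02% of the 32851 RefSeq promoters hold it in the 250 bases before the start. RefSeq promoters were matched for 8 of the 9 members, 14 promoters in all, and that of *Socs3* was the only 1 with a match. A match is a description of these letters and not evidence of binding. Whether the match shown is any of the known *Socs3* elements was not examined.

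*Socs3* levels were 3.84, 3.93, 4.47 and 4.71 FPKM in *Mtorfl/fl* baseline replicates 1 to 4 and 5.59, 5.26, 6.87, 8.7 and 8.18 FPKM in day 7 replicates 1 to 5. In *Mtor-cKO* DRGs they were 4.48, 5.59, 4.38 and 4.77 FPKM at baseline and 9.13, 7.79, 6.81 and 6.1 FPKM at day 7. In each genotype all day 7 libraries exceeded all baseline libraries, and between the genotypes the groups overlapped at both time points. *Socs3* rose by 0.72 on the log2 scale in *Mtorfl/fl* (SE 0.14, 95% interval of 0.42 to 1.01, adjusted p = 0.00423) and by 0.61 in *Mtor-cKO* DRGs (SE 0.14, 95% interval of 0.30 to 0.91, adjusted p = 0.0189). The difference of these responses was -0.11 (95% interval of -0.53 to 0.32, adjusted p = 0.865). Between the genotypes it differed by 0.19 at baseline (95% interval of -0.13 to 0.50, adjusted p = 0.442) and by 0.08 at day 7 (95% interval of -0.21 to 0.37, adjusted p = 0.701), and neither passed. The rise in *Mtorfl/fl* DRGs passed in every alternative run. That in *Mtor-cKO* DRGs kept its direction but missed the threshold without *Mtor-cKO* baseline replicate 1 or 3 or day 7 replicate 1 or 2 (adjusted p up to 0.0754), and without the 3 libraries richest in muscle markers (0.61, adjusted p = 0.169). The macrophage marker sum moved with *Socs3* in some libraries and not in others. In *Mtor-cKO* day 7 replicates 1 to 4 it was 347, 277, 235 and 217 FPKM, the same order as their *Socs3* levels. *Mtorfl/fl* day 7 replicates 1 and 2, lowest in *Socs3* of that group, had the lowest sums, 122 and 121 FPKM. Replicate 4 of that group, highest in *Socs3*, had a sum of 200 FPKM, against 304 and 345 FPKM in replicates 3 and 5. *Mtor-cKO* baseline replicate 2, highest in *Socs3* of its group, had the lowest sum there, 76.7 FPKM. *Mtorfl/fl* baseline replicate 4 had a sum of 258 FPKM with *Socs3* at 4.71 FPKM. The part of macrophages in the *Socs3* levels was not tested.

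**Figure D4:**
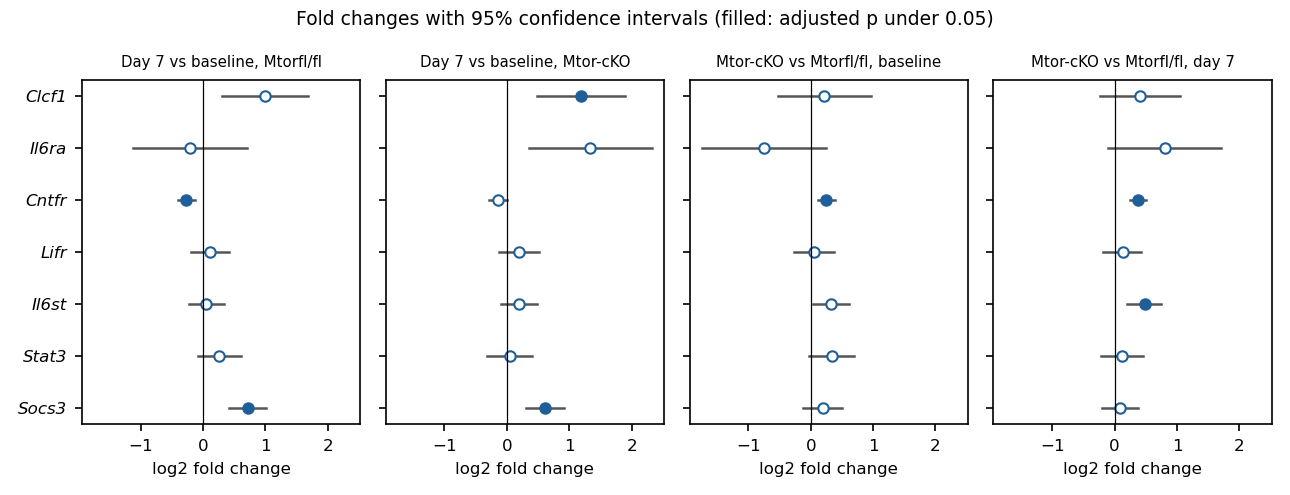
Log2 fold changes of the 7 members tested (points, filled where the adjusted p was under 0.05) with 95% confidence intervals (lines) in the 4 comparisons between groups. *Socs3* is filled in both injury panels, at 0.72 and 0.61, and *Cntfr* in both genotype panels, at 0.25 and 0.38.

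Few members were tested, so each count is set beside the share of all genes. Injury moved 1 of the 7 members up and 1 down in *Mtorfl/fl* DRGs, where 7.24% of the 13408 genes passed (4.66% higher and 2.58% lower), and 2 of 7 up in *Mtor-cKO* DRGs, where 6.96% passed (4.57% higher). The genotypes differed in 1 of 7 members at baseline, where 15.9% of all genes passed (7.97% higher in *Mtor-cKO* DRGs), and in 2 of 7 at day 7, where 26% passed (12.9% higher). The interaction passed for none of the 7 members in edgeR (1 at an unadjusted p under 0.05) and for 0.082% of all genes, and for none in DESeq2. Groups did not overlap in 1 member upward and 1 downward after injury in *Mtorfl/fl* DRGs, where 4.65% and 3.48% of all genes were so. In *Mtor-cKO* DRGs 5 members were higher at day 7 with no overlap, where 15.7% of all genes were so, and between the genotypes at day 7 it was 2 members higher, where 16.3% of all genes were so. The median log2 fold change of the 7 members was 0.12 after injury in *Mtorfl/fl*, 0.20 in *Mtor-cKO*, 0.21 between the genotypes at baseline and 0.38 at day 7, beside medians over all genes tested of -0.01, -0.00, -0.01 and 0.03.

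By the root mean square difference of centred log2(FPKM + 1) values over the 17 libraries, the genes whose pattern lay nearest to that of *Socs3* were *Galns* (0.138), *Mex3d* (0.158) and *Mapkapk2* (0.163), where the median over genes was 0.374. For *Stat3* they were *Cic* (0.0679), *Celf4* (0.0748) and *Amer3* (0.0751), with a median of 0.323.

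Among the other ligands of the family, *Cntf*, the ciliary neurotrophic factor gene, which Schwann cells express, was lower in *Mtor-cKO* DRGs at baseline (-1.01, SE 0.28, adjusted p = 0.0245). *Cntf* was highest in *Mtorfl/fl* baseline replicate 3 (73.7 FPKM), the library with the most myelinating Schwann cell marker RNA. The difference missed the threshold without that library (-0.63, adjusted p = 0.102) and without *Mtor-cKO* baseline replicate 1 or 3 (adjusted p up to 0.0675). It also missed the threshold with both baseline groups fitted alone and with limma-trend (adjusted p up to 0.0738). The same held without the 3 libraries richest in muscle markers (adjusted p = 0.121) or the 3 of highest total FPKM (adjusted p = 0.0908).

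Of the other receptors, *Osmr* and *Il31ra*, which encode the 2 chains of the IL-31 receptor, were lower in *Mtor-cKO* DRGs at both time points. *Il31ra* stood at 6.9 to 9.81 FPKM in *Mtorfl/fl* baseline and 8.12 to 13.24 FPKM in day 7 libraries, and at 0.57 to 0.92 FPKM and 0.6 to 0.9 FPKM in *Mtor-cKO* libraries. Its log2 difference between the genotypes was -3.51 at baseline (SE 0.19, adjusted p = 2.4e-08) and -3.99 at day 7 (SE 0.19, adjusted p = 4.45e-09). *Osmr* stood at 12.99 to 15.65 FPKM and 12.2 to 14.24 FPKM in *Mtorfl/fl*, and at 7.48 to 9.07 FPKM and 9.54 to 11.06 FPKM in *Mtor-cKO* libraries, with log2 differences of -0.74 (SE 0.10, adjusted p = 0.000107) and -0.46 (SE 0.09, adjusted p = 0.00184). Both are known markers of itch-sensing neurons, and they stand in contrast to *Il6st* and *Cntfr*, which were higher in *Mtor-cKO* DRGs at day 7.

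Of the JAK kinases that the receptors activate, *Jak1* alone passed between the genotypes. *Jak1* stood at 71.19 to 100.2 FPKM and 79.99 to 106.73 FPKM in *Mtorfl/fl* baseline and day 7 libraries, and at 55.85 to 59.7 FPKM and 62.65 to 71.31 FPKM in *Mtor-cKO* libraries. It was lower in *Mtor-cKO* DRGs by a log2 difference of -0.59 at baseline (SE 0.15, adjusted p = 0.0128) and -0.64 at day 7 (SE 0.14, adjusted p = 0.00382), with no overlap. The baseline difference missed the threshold without the 3 libraries richest in muscle markers (-0.54, adjusted p = 0.14). *Jak2* rose after injury in *Mtor-cKO* DRGs (0.46, SE 0.06, adjusted p = 0.000409), and in *Mtorfl/fl* DRGs its log2 fold change was 0.20 (SE 0.06, adjusted p = 0.0545), with a difference of the responses of 0.26 (adjusted p = 0.231). The *Mtorfl/fl* change of *Jak2* passed in DESeq2 (adjusted p = 0.0301), without the libraries that stood apart (0.27, adjusted p = 0.016), and without *Mtorfl/fl* baseline replicate 3 or day 7 replicate 1 or 2 (adjusted p of 0.0373 to 0.0471).

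Of the 9 JAK and other STAT genes that passed the filter, 2 rose after injury in *Mtorfl/fl* and 3 in *Mtor-cKO* DRGs. *Stat5a* and *Stat5b*, which encode the STAT5 transcription factors, were those that rose in both. *Stat5a* stood at 1.89, 2.15, 1.81 and 2.5 FPKM in *Mtorfl/fl* baseline and 3.13, 3.04, 5.55, 4.24 and 3.83 FPKM in day 7 libraries, and at 3.51, 2.89, 3.47 and 3.04 FPKM and 5.92, 7.57, 6.36 and 5.23 FPKM in *Mtor-cKO* baseline and day 7 libraries. Its log2 fold change after injury was 0.91 in *Mtorfl/fl* (SE 0.16, adjusted p = 0.00218) and 0.93 in *Mtor-cKO* DRGs (SE 0.17, adjusted p = 0.00307). It was also higher in *Mtor-cKO* DRGs at baseline (0.62, adjusted p = 0.0216) and at day 7 (0.64, adjusted p = 0.00694), the former not without *Mtorfl/fl* baseline replicate 1 or 3 or *Mtor-cKO* baseline replicate 1 or 3 (adjusted p up to 0.0696). *Stat5b* rose by 0.48 in *Mtorfl/fl* (SE 0.08, adjusted p = 0.00183) and by 0.47 in *Mtor-cKO* DRGs (SE 0.09, adjusted p = 0.00455). Without the 3 libraries richest in muscle markers, the *Mtor-cKO* rises of *Stat5a* (adjusted p = 0.139) and *Stat5b* (adjusted p = 0.0563) did not pass. *Stat5a* lies tail to tail with *Stat3*, whose change after injury passed in neither genotype.

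All 15 other inhibitors of the pathway passed the filter, of which 3 rose after injury in *Mtorfl/fl* and 1 in *Mtor-cKO* DRGs. *Ptpn1*, which encodes a phosphatase that acts on JAK2, rose in both genotypes, by 0.47 in *Mtorfl/fl* (SE 0.10, adjusted p = 0.00746) and by 0.58 in *Mtor-cKO* DRGs (SE 0.10, adjusted p = 0.00318). *Socs2*, a relative of *Socs3*, stood at 11.85, 18.04, 11.98 and 15.24 FPKM in *Mtorfl/fl* baseline and 21.07, 21.03, 21.73, 25.15 and 30.16 FPKM in day 7 libraries. *Mtor-cKO* values were 14.5, 11.78, 13.59 and 13.59 FPKM at baseline and 17.42, 14.86, 14.16 and 19 FPKM at day 7. *Socs2* rose by 0.70 in *Mtorfl/fl* DRGs (SE 0.13, adjusted p = 0.00389) and was lower in *Mtor-cKO* DRGs at day 7 (-0.57, SE 0.13, adjusted p = 0.00562). In *Mtor-cKO* DRGs its log2 fold change after injury was 0.26 (adjusted p = 0.264), and the difference of the responses was -0.44 (95% interval of -0.85 to -0.03, adjusted p = 0.355). *Pias3*, which encodes an inhibitor of STAT3 binding to DNA, was higher in *Mtor-cKO* DRGs at baseline (0.28, SE 0.06, adjusted p = 0.00417), which passed in every alternative run. It was higher by 0.22 after injury in *Mtorfl/fl* DRGs (adjusted p = 0.0236), a call lost on leaving out any of 4 *Mtorfl/fl* libraries, baseline replicates 1 and 3 and day 7 replicates 1 and 3 (adjusted p up to 0.0749). In *Mtor-cKO* DRGs its change after injury was -0.07 (adjusted p = 0.479). The difference of the responses was -0.28 (adjusted p = 0.166), and it passed in DESeq2 (-0.30, adjusted p = 0.0418).

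Of 25 genes described as STAT3 targets, 23 passed the filter. After injury 6 of the 23 rose in *Mtorfl/fl* and 9 in *Mtor-cKO* DRGs, with median log2 fold changes of 0.20 and 0.57, where 4.66% and 4.57% of all genes rose. This list was chosen with earlier results of these data known. It holds *Gal*, *Npy* and *Nts*, which the study reported as upregulated by injury in these libraries. The counts therefore do not test whether such genes rose more often than others. The count in *Mtor-cKO* DRGs was 5 without baseline replicate 2 or 3 or day 7 replicate 1 or 2 of that genotype, and ranged from 4 to 14 over all alternatives. The count in *Mtorfl/fl* DRGs was 4 without baseline replicate 3 or day 7 replicate 3 or 4 of that genotype, within a range of 4 to 8. *Sbno2*, a gene that IL-6 family cytokines induce through STAT3, stood at 9.71 to 11.62 FPKM in *Mtorfl/fl* baseline and 18.75 to 27.45 FPKM in day 7 libraries, and at 8.73 to 11.1 FPKM and 19.83 to 28.37 FPKM in *Mtor-cKO* libraries. It rose by 1.07 in *Mtorfl/fl* (SE 0.13, adjusted p = 6.46e-05) and by 1.24 in *Mtor-cKO* DRGs (SE 0.13, adjusted p = 2.86e-05), and like *Socs3* its levels overlapped between the genotypes. The neuropeptide genes *Gal*, *Npy* and *Nts*, which are on this list, rose in both genotypes as well. *Gal* went from 14 to 20.4 FPKM at baseline to 210.73 to 457.41 FPKM at day 7 in *Mtorfl/fl*, and from 22.03 to 30.23 FPKM to 129.39 to 224.89 FPKM in *Mtor-cKO* libraries. Unlike *Socs3* and *Sbno2*, all 3 were lower in *Mtor-cKO* DRGs at day 7. They were the only targets that passed as lower there, while 4 others of the 23 passed as higher. Among all genes, 26% passed in either direction at day 7 and 12.9% as higher. For *Gal* the log2 difference was -0.67 (SE 0.20, adjusted p = 0.0229), which missed the threshold without *Mtor-cKO* day 7 replicate 3 or 4, in the fit of both day 7 groups alone, and without the 3 libraries highest in skeletal muscle markers (adjusted p of 0.051 to 0.0761). At day 7, *Npy* stood at 112.46 to 332.01 FPKM in *Mtorfl/fl* and 7.69 to 11.05 FPKM in *Mtor-cKO* libraries, and *Nts* at 53.11 to 138.69 FPKM and 3.48 to 4.97 FPKM. Both were lower in *Mtor-cKO* DRGs at baseline too, *Npy* by -4.56 (adjusted p = 0.00233) and *Nts* by -2.23 (adjusted p = 8.73e-05). After injury *Npy* rose by 6.13 in *Mtorfl/fl* and by 6.38 in *Mtor-cKO* DRGs, in the latter from at most 0.19 FPKM. *Nts* rose by 3.46 and 1.39. The differences of the responses were 0.25 for *Npy* (adjusted p = 0.937) and -2.07 for *Nts* (adjusted p = 0.0527).

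The search for TTCNNNGAA in the promoters of the 14 other genes named above matched RefSeq promoters for 13 of them, 18 promoters in all. It found the consensus in 3 of the 18, namely 2 of the 3 *Sbno2* promoters and the 1 *Il31ra* promoter. These are shown beside that of *Socs3* with up to 25 bases on each side, all from the minus strand of GRCm38.p6, the first *Sbno2* promoter with a match at chr10:80102703-80102753, the other with a match at chr10:80101188-80101236 and *Il31ra* at chr13:112580820-112580878, with the matches (26, 24 and 191 bases before the start) in capitals.
Sbno2, first promoter: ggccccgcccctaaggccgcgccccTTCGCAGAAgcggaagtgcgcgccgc
Sbno2, other promoter: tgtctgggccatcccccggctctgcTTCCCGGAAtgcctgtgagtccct
Il31ra: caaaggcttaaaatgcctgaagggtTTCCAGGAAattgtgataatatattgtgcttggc
*Socs3* and *Sbno2*, which have a match, passed after injury in both genotypes. *Il31ra*, which has one too, passed in neither, although it passed in *Mtorfl/fl* DRGs without baseline replicate 2 (0.54, adjusted p = 0.0389). *Gal*, *Npy*, *Nts*, *Stat5a*, *Stat5b* and *Ptpn1*, whose promoters hold none in this window, passed in both. Whether matches go with the response to injury was not tested.

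**Figure D5:**
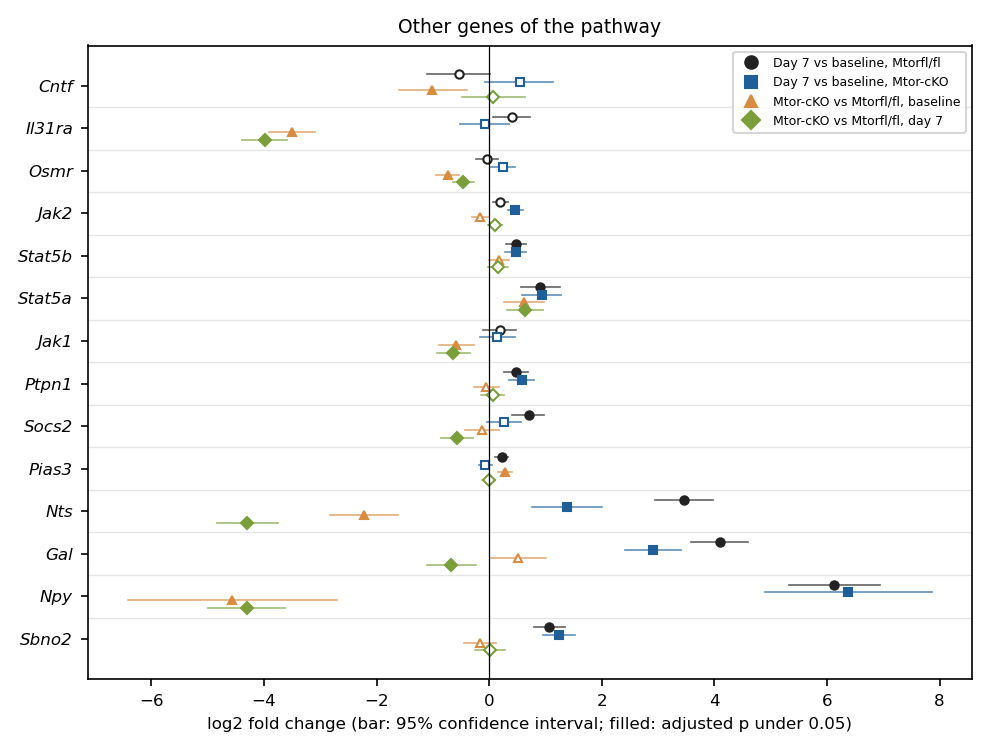
Log2 fold changes with 95% confidence intervals of 14 other genes of the pathway in the 4 comparisons between groups, filled where the adjusted p was under 0.05. *Stat5a*, *Stat5b*, *Ptpn1*, *Nts*, *Gal*, *Npy* and *Sbno2* are filled for injury in both genotypes, and *Il31ra*, *Osmr* and *Jak1* lie left of 0 for genotype at both time points.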

How the data were processed

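Libraries from RNA prepared with the RNeasy micro kit were run on a BGISEQ-500 and grouped here by the genotype and state in the deposited labels. The study's methods name GRCm38.p5 as the genome, whereas the submitters' processing notes name mm9 with HISAT2 (2.0.4), Bowtie2 (2.2.5) and RSEM (1.2.12), and the strand setting is not stated. The expected counts were deposited by the authors as estimates per gene with no scaling, 34.2% of them not whole, and were rounded before the tests. FPKM came from the authors too, as deposited, scaled to transcript length and library size. Of the value columns, 76 in other sheets of the deposited tables were not used, 8 of which carry a number that no sample has. Columns of the authors' own comparisons (fold changes, p and q values) were not used. 1 row without a gene, with 0% of the counts, was left out.

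Counts were fitted in edgeR 4.0.16 (R 4.3.3) with TMM normalization and 1 coefficient per group over all 17 libraries, after the FPKM filter of the study. The test was checked on counts simulated with the same dispersion for every gene, no unusual libraries, and changes larger than most of those reported for the members. That check does not bear on smaller changes or on the libraries that stood apart. *Il6* and *Lif* were tested on log2(FPKM + 0.1) by exact permutation. Alternatives were DESeq2 1.42.0, RLE normalization, the filterByExpr filter, no filter, the 2 groups alone, a replicate block, limma-trend (limma 3.58.1) on log2(FPKM + 0.1), log2(FPKM + 1) for the low members, leaving out each library, leaving out the 3 libraries richest in muscle markers and, chosen after seeing the data, leaving out the 3 with the highest total FPKM. The members and all gene lists were chosen with earlier results of these data known. Genes named beside the members are those with the smallest adjusted p in each list, up to 4 and only those past the threshold, and 1 of them is not reported here. Replicate numbers did not pair the libraries: the correlation of deviations had a median of -0.07 over 24 same-numbered pairs and of 0.06 over the others. No libraries of a group agreed within sampling noise (chi-square per degree of freedom of at least 3.8). Positions are from GENCODE M21 (GRCm38). Figures were drawn with Python 3.11.15 and Matplotlib 3.10.9.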

Additional observations from a re-analysis of the deposited data

Results flagged for a closer look

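In 8 of the 36 groups of 4 or 5 libraries examined for the 9 genes, 1 library lay far from the others of its group by Dixon's test, which chance alone does in about 1 group in 20. In *Mtorfl/fl* day 7 replicate 5, 3 genes were set apart at once: *Stat3* was low at 77.19 FPKM (others 105.71 to 111.43 FPKM), *Il6st* was low at 63.4 FPKM (others 80.95 to 82.63 FPKM), and *Il6* was high at 1.3 FPKM (others 0.41 to 0.55 FPKM). This is also the library with the highest total FPKM and the lowest pan-neuronal marker sum of the *Mtorfl/fl* groups. *Cntfr* was high at 52.43 FPKM in *Mtorfl/fl* day 7 replicate 3 (others 45.7 to 47.15 FPKM) and low at 63.42 FPKM in *Mtor-cKO* baseline replicate 2 (others 70.2 to 71.01 FPKM), the latter being the library with the most skeletal muscle marker RNA. *Lifr* was high at 41.12 FPKM in *Mtor-cKO* baseline replicate 1 (others 36.6 to 37.31 FPKM). *Il6st* was high at 114.77 FPKM in *Mtor-cKO* day 7 replicate 4 (others 110.44 to 110.8 FPKM), and *Lif* was low there at 0.15 FPKM (0.19 FPKM in each of the others). That *Lif* value rests on 13 expected counts, against 17, 17 and 16 in replicates 1 to 3, with FPKM listed to 2 decimals. The groups share libraries across genes, so the 8 flags are not independent. The cause of the flagged values was not tested.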

How the results depend on the processing

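Over 26 alternatives per comparison (25 for the interaction), the number of members that passed kept within 1.5 times for genotype at day 7 and for the interaction, where it stayed at 0 in each. With only the 2 groups compared it was 1 for injury in *Mtorfl/fl* (2 in the fit reported), 5 for injury in *Mtor-cKO* (2 in the fit reported) and 0 for genotype at baseline (1 in the fit reported). For injury in *Mtor-cKO* it was 1 with no filter, 4 without the 3 libraries of highest total FPKM and 0 without the 3 libraries richest in muscle markers, and for genotype at baseline it was 0 without the latter and 2 with limma-trend. Leaving out each library gave 0 to 3 for injury in *Mtor-cKO*, 0 to 3 for genotype at baseline, and 2 for injury in *Mtorfl/fl* and for genotype at day 7. The replicate block gave 2 for genotype at baseline, passed the other calls at counts within 1.5 times, and turned the *Lifr* interaction to -0.03. Since the numbers do not pair the libraries, it says nothing of a weaker effect.

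Among the members, signs turned only in log2 differences that had not passed. Without the 3 libraries of highest total FPKM, injury in *Mtorfl/fl* gave -0.08 for *Il6st*, -0.04 for *Lifr* and 1.07 for *Il6ra*, genotype at baseline gave -0.20 for *Lifr* and 0.65 for *Il6ra*, and the interaction gave -0.39 for *Clcf1*. Without the libraries richest in muscle markers, *Stat3* was -0.01 for injury in *Mtor-cKO*, *Clcf1* was -0.48 for genotype at baseline and *Socs3* was -0.03 for genotype at day 7. With limma-trend *Il6ra* was 0.04 for injury in *Mtorfl/fl*. Leaving out single libraries gave -0.03 to 0.19 for *Il6st* and -0.51 to 0.19 for *Il6ra* after injury in *Mtorfl/fl*, -0.05 to 0.17 for *Lifr* and -0.11 to 0.43 for *Clcf1* between genotypes at baseline, -0.03 to 0.18 for *Socs3* between genotypes at day 7, and -0.05 to 0.17 for *Lifr* and -0.03 to 0.52 for *Clcf1* in the interaction. For the low members it gave -0.36 to 0.16 for *Lif* after injury in *Mtorfl/fl* and -0.00 to 0.66 for *Il6* in *Mtor-cKO*. *Clcf1* after injury in *Mtorfl/fl* also passed with DESeq2 (adjusted p = 0.0341), as did *Il6ra* in *Mtor-cKO* (adjusted p = 0.0397).

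Among the other genes of the pathway, counts of calls changed most for injury in *Mtor-cKO*, from 9 STAT3 targets to between 4 and 14, from 3 JAK and STAT genes to between 1 and 5 and from 1 inhibitor to between 0 and 5. For genotype at baseline the JAK and STAT genes went from 2 to between 0 and 3, the inhibitors from 1 to at most 2 and the targets from 3 to between 2 and 5. For genotype at day 7 the inhibitors went from 1 to at most 3. After injury the receptors went from 0 to at most 1 in each genotype. In the interaction the targets went from 0 to at most 2, with *Nts* past the threshold in DESeq2 (adjusted p = 1.62e-05), and the inhibitors from 0 to at most 1. Leaving out the 3 libraries richest in muscle markers leaves 2 *Mtor-cKO* baseline libraries, and there *Ptpn1* (adjusted p = 0.0764) and *Nts* (adjusted p = 0.179) lost their calls after injury in *Mtor-cKO*. The cause of these changes was not tested. At the depth of these libraries *Il6* and *Lif* rest on at most 29 counts in a library, so changes in them were hardly detectable.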
